A study of Mus musculus with 11 samples.

Results

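The interferon response and antigen presentation genes described here are 37 genes chosen by symbol for their known roles, of 24427 genes measured: 4 interferon receptor chains, 5 transcription factors, 12 interferon-stimulated effectors, 4 class I molecules, 8 genes of class I peptide supply and 4 class II genes. All 37 were found in the tables of both comparisons. Messenger RNA was sequenced from FACS-purified cells of developing kidneys of CFW mice, an outbred stock, to profile nephron progenitors, the cells of the cap mesenchyme from which nephrons form. At E16.5, an embryonic day late in gestation, kidneys of genotype Six2TGC/+ gave Six2+ cells (n = 3 libraries) and Six2- cells (n = 3). Kidneys of genotype Cited1tagRFP/+ at E16.5 gave Cited1+ cells (n = 3), and Six2TGC/+ kidneys at postnatal day 2 (P2) gave Six2+ cells (n = 2). All animals carried a reporter allele, in which regulatory sequence of Six2 or Cited1 marks the cells, and no group came from animals without one. The Cited1+ and P2 Six2+ groups differ in reporter and in age, which cannot be told apart. Whether the libraries within a group are from different animals is not stated in the labels, so the p-values measure only library-to-library spread, which may be technical.

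Interferons are secreted proteins that cells release on infection. Type I interferons signal through a receptor of Ifnar1 and Ifnar2 and interferon gamma through Ifngr1 and Ifngr2; Janus kinases then activate Stat proteins, which enter the nucleus with or without Irf9 and switch on interferon-stimulated genes. Class I molecules, each a heavy chain with beta-2-microglobulin, show peptides cut by the proteasome inside the cell to CD8 T cells, and are made by nearly all nucleated cells. Class II molecules show peptides from outside the cell to CD4 T cells and are best known from macrophages, dendritic cells and B cells.

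Promoters were read for the elements through which these pathways act on DNA. The RefSeq table (GRCm38.p6, 250 bases before to 50 after each start) matched 32 of the 37 genes; Cd74, H2-Ab1, Ifi27, Tap2 and Usp18 were not matched. The core of the interferon-stimulated response element (ISRE), read as GAAA, any 2 bases and again GAAA on either strand, was present in 11 of the 32 (34.4%) and in 1079 of all 27025 genes with windows of that length (3.99%). The core of the gamma-activated site (GAS), TTCNNNGAA, which is its own reverse complement, was present in 9 of the 32 (28.1%) and in 9.55% of all genes; a gene with several windows counts once. A match describes the letters and does not show that a factor binds. The stretches of 4 genes that hold an ISRE core and differed between Six2+ and Six2- cells are shown here 5′ to 3′, from 160 bases before to 30 after the start, with ISRE and GAS cores in capitals.
B2m (chr2:122147527-122147716, plus strand): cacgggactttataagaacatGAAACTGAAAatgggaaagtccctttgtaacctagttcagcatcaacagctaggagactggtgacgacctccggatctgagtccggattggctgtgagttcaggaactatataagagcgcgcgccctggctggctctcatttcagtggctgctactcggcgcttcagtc
Ifitm2 (chr7:140955932-140956121, minus strand): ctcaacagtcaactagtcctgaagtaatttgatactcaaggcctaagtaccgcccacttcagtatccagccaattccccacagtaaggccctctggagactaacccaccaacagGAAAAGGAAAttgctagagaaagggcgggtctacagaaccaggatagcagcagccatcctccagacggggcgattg
Ifitm3 (chr7:141010715-141010904, minus strand): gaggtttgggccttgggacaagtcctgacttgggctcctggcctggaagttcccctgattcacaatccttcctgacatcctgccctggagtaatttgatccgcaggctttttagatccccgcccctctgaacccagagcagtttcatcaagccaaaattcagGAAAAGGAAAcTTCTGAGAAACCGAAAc
Bst2 (chr8:71537443-71537632, minus strand): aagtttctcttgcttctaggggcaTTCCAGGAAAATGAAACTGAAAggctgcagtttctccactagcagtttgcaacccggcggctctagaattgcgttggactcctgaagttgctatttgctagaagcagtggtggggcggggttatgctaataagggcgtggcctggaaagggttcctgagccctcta
In B2m the ISRE core begins 139 bases before the start, and in Ifitm2 it begins 46 bases before it. In Bst2 overlapping copies begin 130 and 124 bases before the start and run into a GAS core that begins 136 bases before it. Ifitm3 holds 2 copies, which begin at bases 2 and 19 counted from the start, with a GAS core between them that overlaps the second. Neither core was found in the Ifitm1 window (chromosome 7, plus strand, 140967826 to 140968125). That window lies downstream of the annotated start of the gene at 140967221, so the bases before that start were not searched. No ISRE core was found for Ifngr1, Ifngr2, Ifnar2, Irf1, Ifit2, Ifi35, H2-D1, Psmb10 or H2-Eb1, which also differed between Six2+ and Six2- cells. Stat2 and Psme1 hold the core and were tested but not called in that comparison. The other genes that hold it, Isg15, Ifit1, Ifit3, Oas1a and H2-T23, were too low to be tested.

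Levels are on the RPKM scale (reads per length of transcript and depth of library), so that they can be compared between genes. The steps between low values correspond to 16500000 reads in the shallowest library, P2 Six2+ replicate 2, and 44000000 in the deepest, and 1 read on a transcript of 1 kb is worth 0.0227 to 0.0605. Values for a group are listed in replicate order. Differences are of log2(value + 1), a scale that understates changes at low levels, and have their SE beside them. They were tested with limma, without pairing of libraries, over all genes with a mean of at least 1. A gene was called at a Benjamini-Hochberg adjusted p below 0.05. Of the 37 genes, 27 passed that filter, the same 27 in both tables, and Irf7, Ifit1, Ifit3, Isg15, Usp18, Oas1a, H2-T23, Psmb8, Psmb9 and Tap2 passed in neither. Levels of libraries from different tables are set side by side with no test. In these bulk samples, fewer cells of a type and less RNA per cell cannot be told apart.

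**Figure D1:**
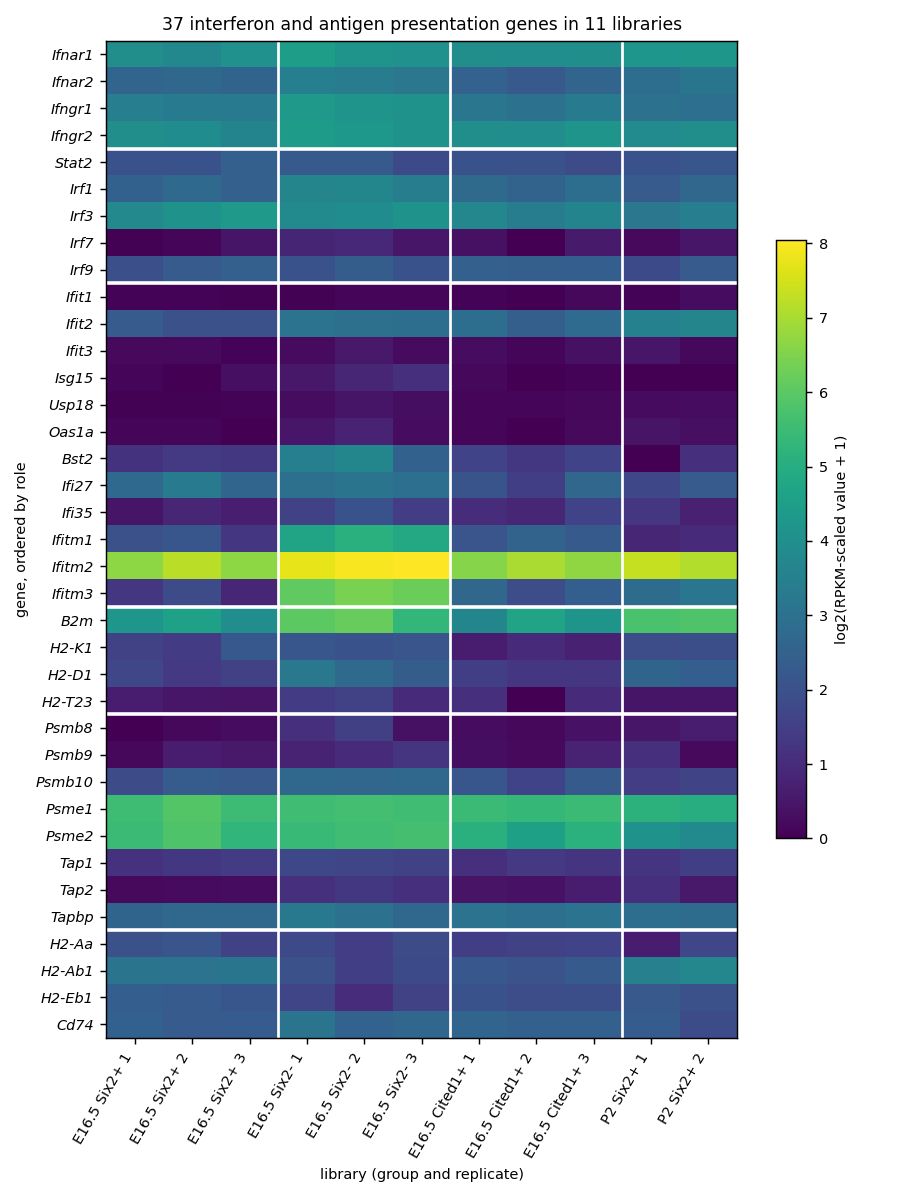
Level of each of the 37 genes (rows, grouped by role from receptors to class II) in each of the 11 libraries (columns), as log2(RPKM-scaled value + 1). Ifitm2 is the brightest row in every library, Ifitm1 and Ifitm3 are bright in the Six2- columns, and H2-Ab1 is brighter in the Six2+ columns of both ages than in the Six2- columns.

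Between Six2+ and Six2- cells at E16.5, most of these genes that changed were lower in the progenitors, while a pair of class II genes was higher. A total of 13 of the 27 genes tested were lower in Six2+ cells and 2 were higher, against 18.1% lower and 20.5% higher (38.6% in either direction) among all 11882 genes tested. The median log2 difference was -0.38 over the 27 genes and 0.12 over all genes. The 13 were 3 of 4 receptor chains, 1 of 4 transcription factors, 6 of 7 effectors, 2 of 3 class I molecules and 1 of 5 peptide supply genes. The 2 higher genes were H2-Ab1 and H2-Eb1, of the 4 class II genes. Of these 15 calls, 13 held under every alternative run in which the gene was tested. Ifngr2 and Psmb10 did not.

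The groups also differed in the levels of markers of other cells. The summed level of 18 macrophage and leukocyte markers was 4.15 to 18.5 in Six2+, 124 to 181 in Six2-, 11.6 to 18.2 in Cited1+ and 34.7 to 39.8 in P2 Six2+ libraries. Of the 16 tested, 15 were lower in Six2+ than in Six2- cells, with none higher. In Six2+ libraries 2 or 3 of the 18 measured at least 1, against 17 or 18 in Six2- libraries. Most thus entered the test through their Six2- level, which made a higher call in Six2+ cells unlikely. Lower in Six2+ than in Six2- cells were also 12 of 12 interstitial stroma markers (sums of 93.2 to 116 against 2386 to 3504), 11 of 12 endothelial markers, 6 of 7 erythroid markers (11.7 to 51.4 against 826 to 8574) and 6 of 7 ureteric epithelium markers (7.26 to 12.3 against 38.7 to 58.1). The endothelial sums, 97.1 to 117 against 102 to 151, overlapped in range, with Ramp2 the 1 marker higher in Six2+ cells. The same limit of the filter holds for endothelial markers, of which 4 or 5 against 12 to 14 measured at least 1. It also holds for ureteric markers, with 3 or 4 against 8 or 9. Of 12 nephron progenitor markers, 10 were higher in Six2+ cells and 1, Gdnf, was lower, with sums of 1060 to 1145 against 133 to 178. Six2 itself measured 315, 351 and 354 in Six2+ and 2.72, 2.90 and 16.98 in Six2- cells, with Six2- replicate 3 the highest of its group. The part of these other cells in the differences below was not tested.

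In Cited1+ cells at E16.5 against Six2+ cells at P2, 9 of the 27 genes changed. All 3 class I molecules tested, with Ifnar2, Ifit2 and H2-Ab1, were lower in Cited1+ cells, and Ifitm1, Psme1 and Psme2 were higher. That made 6 lower and 3 higher of the 27 tested, against 12.7% lower and 16.3% higher (29.0% in either direction) among all 11876 genes. The median was 0.11 over the 27 and 0.07 over all genes. H2-K1 (mean 0.735 in Cited1+ cells) passed the filter through its P2 level, and Ifitm1 (mean 0.916 at P2) through its Cited1+ level. Both were also called with no filter (adjusted p = 0.0186 and 0.0173). With libraries rescaled to the same total the split was 9 lower and 2 higher, and with median-of-ratios scaling it was 8 and 2. Of the 9 calls, 5 held under every alternative run in which the gene was tested. In the fits without a P2 library, quoted for single genes, P2 was 1 library and the spread came from the Cited1+ libraries alone, so that the lone library was assumed to vary like them. Beside this, 8 of 9 leukocyte markers tested were lower in Cited1+ cells and none was higher, while 9 of 10 stroma markers (154 to 168 against 54.5 to 65.6), 4 of 4 erythroid markers (94.4 to 138 against 24.1 to 46.4) and 5 of 8 ureteric markers (80.5 to 102 against 41.2 to 54.0) were higher. The other stroma marker, Pdgfrb, and 1 ureteric marker were lower. Of the 18 leukocyte markers, 1 or 2 measured at least 1 in Cited1+ libraries and 13 in each P2 library. Most of those tested thus passed the filter through their P2 level, which made a higher call in Cited1+ cells unlikely. Endothelial markers summed to 92.1 to 97.7 and 41.8 to 44.4, with 1 of 7 higher, and progenitor markers to 1170 to 1277 and 765 to 769, with 9 of 12 higher and 2 lower. Their part in the differences was again not tested.

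**Figure D2:**
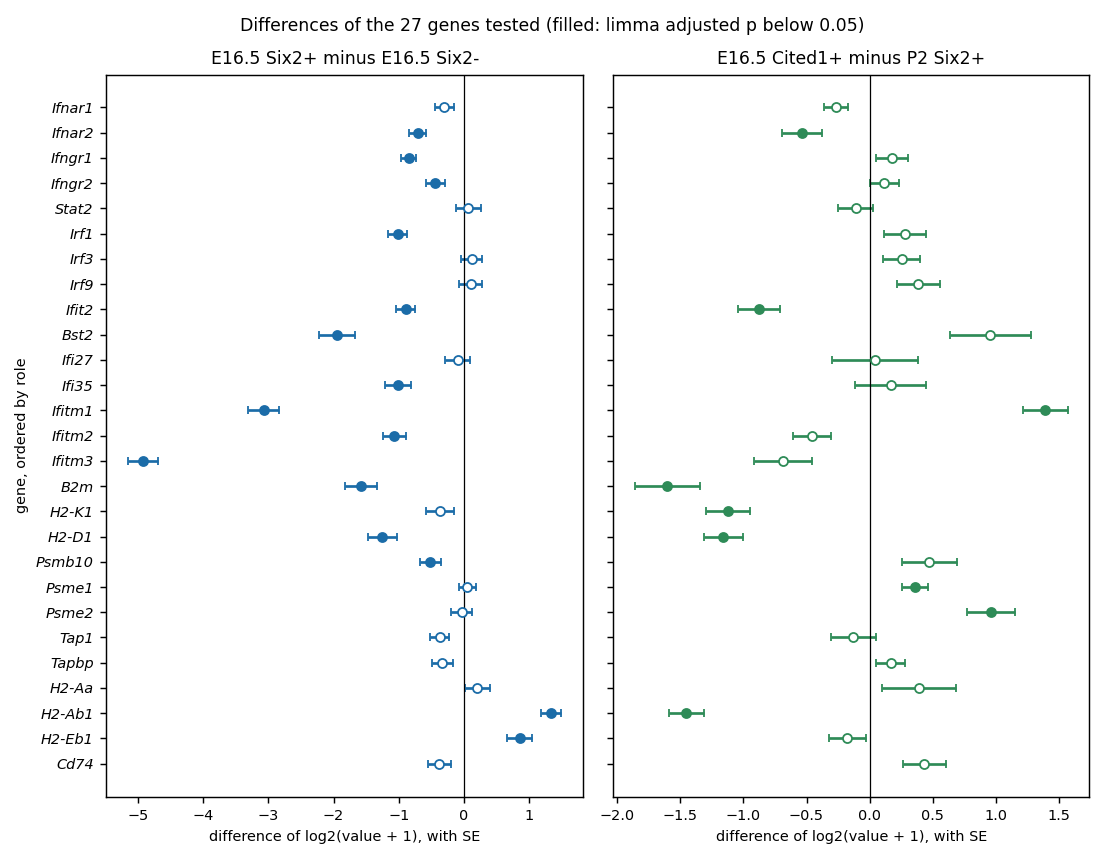
Difference of log2(value + 1) with its SE for each of the 27 genes tested (rows, ordered by role), for E16.5 Six2+ minus Six2- cells (left) and E16.5 Cited1+ minus P2 Six2+ cells (right), with filled points for limma adjusted p below 0.05. On the left Ifitm3 lies farthest from 0, at -4.92, and H2-Ab1 and H2-Eb1 are the filled points above 0; on the right B2m, H2-K1, H2-D1 and H2-Ab1 are the lowest points, between -1.12 and -1.60.

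Receptor chains for both interferon types were measured in every group. Their genes Ifnar2, Ifnar1 and Ifngr2 lie together on chromosome 16 (GRCm38, 91372783 to 91565623) with Il10rb between the first pair, and Ifngr1 lies on chromosome 10. Ifngr1, the ligand-binding chain for interferon gamma, measured 9.83, 9.14 and 8.79 in Six2+ and 19.1, 17.05 and 16.4 in Six2- cells. Its log2 difference was -0.85 (SE 0.12, adjusted p = 0.000571), and the ranges did not overlap. Ifnar2, the high-affinity chain for type I interferons, measured 5.21, 5.60 and 4.97 in Six2+ and 10.2, 9.46 and 8.18 in Six2- cells, again with no overlap, a difference of -0.71 (SE 0.13, adjusted p = 0.00278). Ifngr2, the signalling chain for interferon gamma, measured 14.7, 13.999 and 11.4 against 20.2, 18.4 and 16.54, a difference of -0.44 (SE 0.14, adjusted p = 0.0348). Each Six2+ library was below each Six2- library, yet the Ifngr2 call was lost without Six2+ replicate 2 (adjusted p = 0.0519) or 3 (0.0887), and without Six2- replicate 1 (0.136) or 2 (0.104). Ifnar1, the other type I chain, measured 14.8, 12.6 and 15.7 in Six2+ and 21.1, 16.99 and 15.9 in Six2- cells, separated by a narrow gap, and its difference of -0.30 (SE 0.15, adjusted p = 0.133) did not pass.

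In the other table Ifnar2 measured 4.81, 3.80 and 5.23 in Cited1+ and 6.49 and 7.73 in P2 Six2+ cells, with Cited1+ below P2 throughout. The difference was -0.54 (SE 0.16, adjusted p = 0.0408). The Ifnar2 call was lost without Cited1+ replicate 1 (adjusted p = 0.102) or 3 (0.0552), without P2 replicate 1 (0.0812) or 2 (0.187), and with no filter on low values (0.109). Ifnar1 measured 14.8, 14.5 and 15.1 in Cited1+ and 17.8 and 18.3 in P2 cells, close within each group and apart between them, with a difference of -0.27 (SE 0.10, adjusted p = 0.0764). That was called when libraries were rescaled to the same total (adjusted p = 0.0406) and with median-of-ratios scaling (0.0413). Ifngr1 measured 7.87, 7.05 and 8.78 against 7.11 and 6.61, and Ifngr2 measured 14.8, 14.5 and 17.1 against 13.8 and 14.6. Both overlapped between groups, and neither difference passed (0.18, adjusted p = 0.33, and 0.11, adjusted p = 0.471).

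Among the transcription factors, Irf1 alone was called, and in 1 of the 2 comparisons. Irf1, which interferon gamma induces and which acts on class I genes, measured 4.62, 5.77 and 4.51 in Six2+ and 11.7, 11.8 and 9.64 in Six2- cells. The Six2+ values were all below the Six2- values, with a difference of -1.02 (SE 0.14, adjusted p = 0.000598). In Cited1+ cells Irf1 measured 5.94, 4.90 and 6.53 and at P2 it measured 3.91 and 5.29, overlapping, with a difference of 0.28 (SE 0.17, adjusted p = 0.236).

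No other factor tested was called in either comparison. Stat2, which carries the type I signal, measured 3.08, 3.12 and 4.49 in Six2+, 3.86, 3.82 and 2.47 in Six2-, 3.04, 3.04 and 2.67 in Cited1+ and 3.06 and 3.40 in P2 cells. Irf9, its DNA-binding partner, measured 2.93, 3.93 and 4.49 in Six2+, 3.11, 4.19 and 3.04 in Six2-, 4.59, 4.42 and 4.26 in Cited1+ and 2.502 and 3.93 in P2 cells. Irf3, which is activated by viral nucleic acid and induces interferon beta, measured 12.7, 16.6 and 19.1 in Six2+, 13.6, 14.04 and 16.3 in Six2-, 12.1, 9.39 and 11.3 in Cited1+ and 8.19 and 9.81 in P2 cells. Six2+ and Six2- ranges overlapped for all 3, with differences of 0.06 (adjusted p = 0.826), 0.10 (0.677) and 0.12 (0.595). Between Cited1+ and P2 cells the differences were -0.11 (adjusted p = 0.561), 0.38 (0.131) and 0.25 (0.217); the Irf9 groups did not overlap, and without P2 replicate 2 it was called (0.63, adjusted p = 0.0488), with P2 then a lone library. Irf7, the factor that amplifies the type I response, ranged from 0 to 0.915 over all libraries. Exons of Irf3 and Irf7 overlap those of Bcl2l12 and Phrf1 on the other strand and exons of Irf9 those of Rnf31, and any use of strand in counting was not given in the sources used here, so these levels are uncertain.

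Between Six2+ and Six2- cells, Ifitm3 and Ifitm1 had the largest differences of the 27 genes tested. With Ifitm2 they are neighbours on chromosome 7 (GRCm38, 140954837 to 141010770) that encode small membrane proteins known to restrict virus entry. Ifitm3 measured 1.39, 2.64 and 0.832 in Six2+ cells and 67.2, 84.4 and 74.2 in Six2- cells. The difference was -4.92 (SE 0.23, adjusted p = 9.72e-07), and the authors' deposited table gives a ratio of 0.0217. Ifitm1 measured 3.02, 3.48 and 1.40 in Six2+ and 25.2, 33.2 and 27.8 in Six2- cells, a difference of -3.07 (SE 0.23, adjusted p = 1.29e-05), with a ratio of 0.0921 in the authors' deposited table. Ifitm2 measured 102, 146 and 102 in Six2+ and 216, 251 and 263 in Six2- cells, a difference of -1.07 (SE 0.18, adjusted p = 0.00147). No Six2+ library reached a Six2- library for any of the 3. Ifitm2 was the highest of the 37 genes in each library, and made up 95.8% to 97.9% of the summed Ifitm1, Ifitm2 and Ifitm3 level in Six2+ against 68.1% to 72.1% in Six2- cells. The share of Ifitm3 in that sum was 0.799% to 1.73% in Six2+ and 20.3% to 22.9% in Six2- cells.

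In the other table Ifitm1 and Ifitm3 did not exceed 8.003 in any library, set beside the Six2- values with no test. Ifitm1 measured 3.35, 4.96 and 3.84 in Cited1+ and 0.827 and 1.01 in P2 cells, and was higher in Cited1+ cells by 1.39 (SE 0.18, adjusted p = 0.00171). Ifitm3 measured 5.37, 2.75 and 4.30 in Cited1+ and 6.23 and 8.003 in P2 cells, with Cited1+ lower in each library. That difference, -0.68 (SE 0.23, adjusted p = 0.0628), did not pass, but was called with libraries rescaled to the same total (-0.76, adjusted p = 0.0374), with median-of-ratios scaling (-0.74, 0.0442) and without Cited1+ replicate 1 (-0.86, 0.0473). Ifitm2 measured 95.2, 129 and 105 in Cited1+ and 162 and 138 in P2 cells, apart by a difference of -0.46 (SE 0.15, adjusted p = 0.0606), and was called with libraries rescaled to the same total (-0.54, adjusted p = 0.0497) and without Cited1+ replicate 2 (-0.58, 0.00691). The 3 genes belong to the same family, and their sequence identity was not measured. How any reads shared between them were counted was not given in the sources used here.

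**Figure D3:**
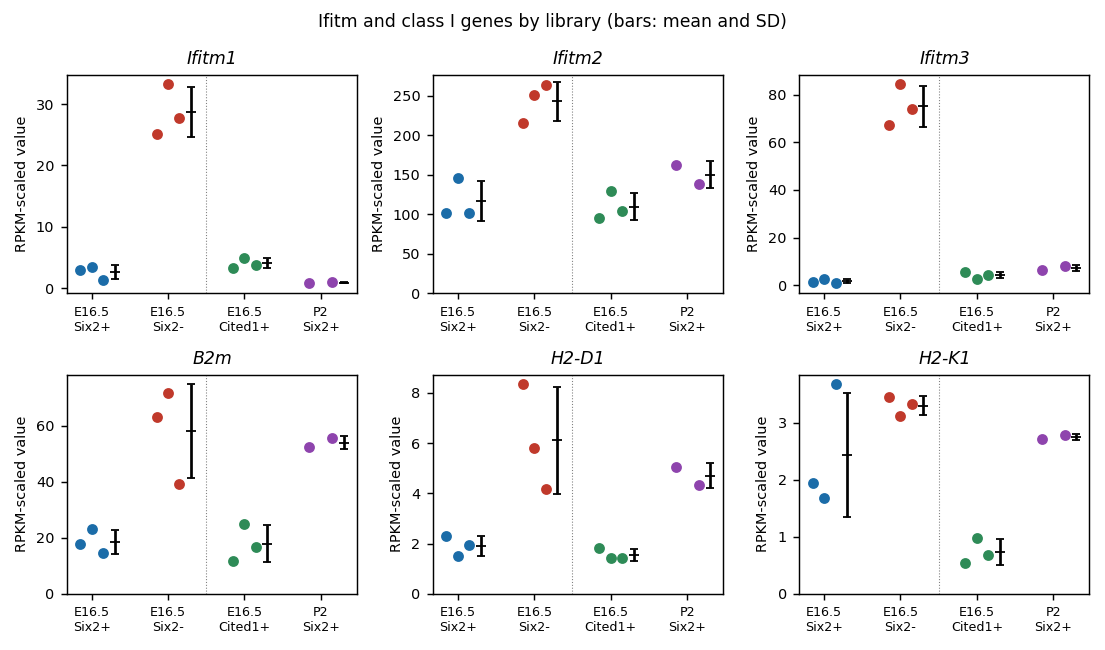
RPKM-scaled value of Ifitm1, Ifitm2, Ifitm3, B2m, H2-D1 and H2-K1 in each library (points, one colour per group), with the group mean and SD as bars; each panel has its own axis, and the dotted line separates the 2 deposited tables. Ifitm1 and Ifitm3 are high in Six2- cells and low in the other groups, while B2m and H2-D1 are also high at P2.

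Among the other effectors, Bst2 (tetherin), which holds virus particles at the cell surface, measured 1.24, 1.59 and 1.45 in Six2+ and 10.04, 11.9 and 4.69 in Six2- cells. The ranges did not overlap, with a difference of -1.94 (SE 0.28, adjusted p = 0.00062). In the other table Bst2 was low, with 2.07, 1.48 and 2.08 in Cited1+ and 0 and 1.18 in P2 cells, a difference of 0.95 (SE 0.32, adjusted p = 0.0623) that was called without P2 replicate 2 (1.52, adjusted p = 0.0118), with P2 then a lone library. Ifit2, a cytoplasmic protein that binds foreign RNA, measured 3.97, 2.97 and 2.95 in Six2+ and 7.44, 6.91 and 6.50 in Six2- cells, a difference of -0.89 (SE 0.14, adjusted p = 0.0013). It was high again at P2, with 10.6 and 11.6 against 6.48, 4.41 and 6.05 in Cited1+ cells, and no library of one group overlapped the other. The second difference was -0.87 (SE 0.16, adjusted p = 0.0082), and was not called without P2 replicate 2 (-0.81, adjusted p = 0.0628). Ifi35, an interferon-induced cytoplasmic protein, measured 0.367, 0.838 and 0.606 in Six2+ and 1.97, 3.05 and 1.76 in Six2- cells, separated, with a difference of -1.01 (SE 0.20, adjusted p = 0.00354). Its Six2+ mean of 0.603 was below 1, so it passed the filter through its Six2- level. With no filter it was also called (adjusted p = 0.0101). It measured 1.04, 0.803 and 2.07 in Cited1+ and 1.40 and 0.665 in P2 cells, with a difference of 0.16 (SE 0.28, adjusted p = 0.68).

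Ifi27, a small membrane protein induced by type I interferon, was the 1 effector of 7 tested that was not called between Six2+ and Six2- cells. It measured 5.77, 9.001 and 5.21 in Six2+ and 6.80, 7.56 and 6.75 in Six2- cells, overlapping, with a difference of -0.10 (SE 0.19, adjusted p = 0.701). In Cited1+ cells it measured 3.22, 1.81 and 5.35 and at P2 2.35 and 4.01, with a difference of 0.04 (SE 0.34, adjusted p = 0.934). The remaining 5 effectors were low in all 11 libraries and passed the filter in neither table. Ifit1 ranged from 0 to 0.206, Ifit3 from 0.0476 to 0.471, Usp18, which removes Isg15 from proteins, from 0.0402 to 0.371, and Oas1a, a sensor of double-stranded RNA, from 0 to 0.708. Isg15, a ubiquitin-like modifier, measured 0.0942, 0 and 0.252 in Six2+, 0.444, 0.840 and 1.12 in Six2- and 0.116, 0 and 0.0449 in Cited1+ cells, and 0 is listed for it in both libraries of P2. With no filter on low values, Six2+ cells were lower in Isg15 (-0.68, adjusted p = 0.0213), Usp18 (-0.28, adjusted p = 0.00912), Oas1a (-0.43, adjusted p = 0.0487) and the factor Irf7 (-0.55, adjusted p = 0.0451), and neither Ifit1 (adjusted p = 0.476) nor Ifit3 (0.218) passed.

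Of the class I molecules, B2m and H2-D1 were lower in the E16.5 progenitors of both comparisons, and H2-K1 in the Cited1+ cells. B2m, the light chain that all classical class I molecules share, lies on chromosome 2 (GRCm38, 122147686 to 122153083). It measured 17.9, 23.2 and 14.5 in Six2+ and 63.3, 71.9 and 39.2 in Six2- cells, a difference of -1.58 (SE 0.24, adjusted p = 0.000919), with a ratio of 0.319 in the authors' deposited table. In the other table B2m measured 11.9, 24.9 and 16.8 in Cited1+ and 52.3 and 55.6 in P2 cells, a difference of -1.60 (SE 0.26, adjusted p = 0.00463). The E16.5 progenitor libraries of both kinds ranged from 11.9 to 24.9, below the lowest Six2- library at 39.2 and the lower P2 library at 52.3, although levels of different tables were not tested.

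H2-D1, a classical heavy chain, measured 2.31, 1.51 and 1.93 in Six2+ and 8.37, 5.79 and 4.16 in Six2- cells, a difference of -1.25 (SE 0.22, adjusted p = 0.00227). Against 5.05 and 4.34 at P2, Cited1+ cells measured 1.83, 1.42 and 1.41, a difference of -1.16 (SE 0.16, adjusted p = 0.00206). Neither pair of groups overlapped. H2-K1, the other classical heavy chain, measured 0.541, 0.983 and 0.681 in Cited1+ and 2.72 and 2.78 in P2 cells, a difference of -1.12 (SE 0.18, adjusted p = 0.00411). In Six2+ cells it measured 1.95, 1.68 and 3.68 and in Six2- cells 3.45, 3.11 and 3.33, and Six2+ replicate 3 was above all 3 Six2- libraries. That difference, -0.37 (SE 0.21, adjusted p = 0.202), did not pass, and was called without Six2+ replicate 3 (-0.61, adjusted p = 0.0172). H2-T23, a non-classical heavy chain, did not pass the filter; it measured 0.521, 0.397 and 0.355 in Six2+, 1.61, 1.95 and 0.980 in Six2-, 1.17, 0 and 0.946 in Cited1+ and 0.362 and 0.366 in P2 cells. With no filter its difference between Six2+ and Six2- cells was -0.80, adjusted p = 0.0124. Class I heavy chains are near-copies of each other and vary between strains; CFW mice are outbred, the build is a single reference, and equal mapping of their alleles was not tested.

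Of the peptide supply genes tested, 1 of 5 was called between Six2+ and Six2- cells and 2 of 5 between Cited1+ and P2 cells, against 38.6% and 29.0% of all genes in either direction. Inducible catalytic subunits of the proteasome, which replace the constitutive ones under interferon gamma, are Psmb8, Psmb9 and Psmb10. Psmb10 measured 2.60, 4.08 and 3.79 in Six2+ and 5.46, 5.25 and 5.41 in Six2- cells, a difference of -0.52 (SE 0.16, adjusted p = 0.0311). The groups did not overlap, but the Psmb10 call was lost without Six2+ replicate 1 (adjusted p = 0.0985), without Six2- replicate 1 (0.0862), 2 (0.0841) or 3 (0.0504), and with no filter (0.0607). In Cited1+ cells Psmb10 measured 3.43, 2.10 and 3.88 and at P2 1.74 and 2.14, a difference of 0.47 (SE 0.22, adjusted p = 0.141), called without Cited1+ replicate 2 (0.66, adjusted p = 0.0187). Psmb8 ranged from 0 to 0.207 in Six2+, 0.284 to 1.89 in Six2-, 0.132 to 0.305 in Cited1+ and 0.390 to 0.542 in P2 cells, and Psmb9 from 0.118 to 1.34 over all libraries. Neither passed the filter, and with none their differences between Six2+ and Six2- cells were -0.84, adjusted p = 0.0743, and -0.54, adjusted p = 0.055.

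The inducible subunits were a small part of the catalytic set in each group. Summed over Psmb8, Psmb9 and Psmb10, they were 1.0% ± 0.31 (SD) of the level of their constitutive counterparts Psmb5, Psmb6 and Psmb7 with the inducible subunits added in Six2+ cells (n = 3), 2.22% ± 0.255 in Six2- (n = 3), 1.45% ± 0.304 in Cited1+ (n = 3) and 1.65% ± 0.200 in P2 cells (n = 2). The lowest Six2- library, at 1.93%, was above the highest Six2+ library, at 1.33%. Psmb10 with Psmb7 gave the largest of the 3 pair shares, at 2.46% in Six2+ and 4.41% in Six2- cells. Of 14 constitutive subunits, none was called between Six2+ and Six2- cells, against 38.6% of all genes in either direction. In Cited1+ against P2 cells 4 were higher and none lower, against 16.3% and 12.7% of all genes. The largest differences were in Psmb5 (0.97, SE 0.24, adjusted p = 0.0225), Psma7 (0.76, SE 0.18, adjusted p = 0.0209) and Psma5 (0.68, SE 0.17, adjusted p = 0.0248).

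**Figure D4:**
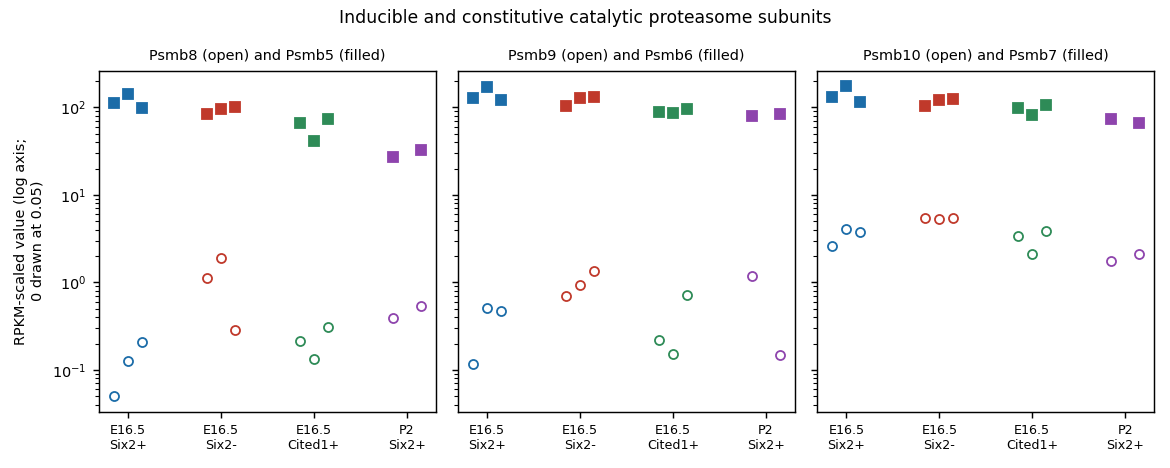
RPKM-scaled value on a log axis of each inducible catalytic subunit (open circles) and its constitutive counterpart (filled squares) in each library, for Psmb8 and Psmb5, Psmb9 and Psmb6, and Psmb10 and Psmb7; a value of 0 is drawn at 0.05. The open circles lie well below the squares in every library, and Psmb10 is the highest of the inducible subunits.

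The activator subunits Psme1 and Psme2, which form a cap that opens the proteasome, were the most abundant peptide supply genes and lie together on chromosome 14 with Irf9. Psme2 measured 43.7, 56.1 and 38.4 in Six2+ and 43.2, 47.2 and 50.1 in Six2- cells, overlapping, with a difference of -0.04 (SE 0.16, adjusted p = 0.866). In Cited1+ cells it measured 33.4, 22.7 and 34.4 and at P2 16.4 and 13.3, a difference of 0.96 (SE 0.19, adjusted p = 0.0107). All Cited1+ libraries were above both P2 libraries, though the Psme2 call was lost without P2 replicate 2 (0.82, adjusted p = 0.0871) and with no filter (0.0594). Psme1 measured 45.3, 58.5 and 44.7 in Six2+ and 46.3, 49.3 and 46.5 in Six2- cells, a difference of 0.05 (SE 0.14, adjusted p = 0.79). It measured 43.4, 40.4 and 43.6 in Cited1+ and 35.0 and 31.0 in P2 cells, a difference of 0.36 (SE 0.10, adjusted p = 0.0395). The Psme1 call was made under 3 of 12 alternatives. It was lost, among others, without Cited1+ replicate 1 (adjusted p = 0.152) or 3 (0.108), without P2 replicate 1 (0.0787) or 2 (0.207), with no filter (0.0605), under both rescalings (0.0957 and 0.0709) and without the mean-variance trend (0.0606). Psme1 exons overlap Emc9 on the other strand.

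Tap1 and Tap2, which together form the peptide pump of the endoplasmic reticulum, and tapasin (Tapbp), which loads peptides onto class I, were also measured. Tap1 measured 1.22, 1.47 and 1.62 in Six2+ and 2.32, 2.21 and 1.91 in Six2- cells. Tapbp measured 5.03, 5.63 and 5.58 in Six2+ and 8.56, 7.26 and 5.64 in Six2- cells. The Six2- libraries were above the Six2+ libraries for both, but the differences, -0.37 (SE 0.15, adjusted p = 0.0739) and -0.33 (SE 0.16, adjusted p = 0.131), did not pass; without Six2- replicate 3 both were called (-0.43, adjusted p = 0.0458, and -0.47, 0.0315). Tap1 was also called with median-of-ratios scaling (-0.45, adjusted p = 0.0399). Tap2 was below the filter, at 0.143, 0.177 and 0.191 in Six2+, 1.15, 1.46 and 1.13 in Six2-, 0.354, 0.325 and 0.532 in Cited1+ and 1.17 and 0.460 in P2 cells. With no filter its difference between Six2+ and Six2- cells was -0.94, adjusted p = 0.000396, and the Six2+ and Six2- ranges did not overlap. In the other table Tap1 measured 1.16, 1.54 and 1.31 in Cited1+ and 1.29 and 1.84 in P2 cells, and Tapbp 7.41, 6.74 and 7.34 in Cited1+ and 6.42 and 6.12 in P2 cells. Neither difference passed (-0.13, adjusted p = 0.602, and 0.17, 0.304). Tap1 exons overlap Psmb9 on the other strand and Tapbp exons overlap Zbtb22.

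Class II genes were detected in progenitors, and 2 of the 4 were higher in Six2+ than in Six2- cells at E16.5. H2-Ab1, the beta chain of the class II molecule A, lies on chromosome 17 (GRCm38, 34257689 to 34269419). It measured 7.58, 7.42 and 7.65 in Six2+ cells, close to each other, and 2.95, 1.81 and 2.52 in Six2- cells. The difference was 1.33 (SE 0.16, adjusted p = 0.000187), and H2-Ab1 is the 1 gene of the 37 on the authors' deposited list of 246 higher genes, with a ratio of 3.10; the list of 545 lower genes holds Ifitm3, Ifitm1 and B2m. H2-Eb1, the beta chain of the class II molecule E, measured 4.24, 3.97 and 3.44 in Six2+ and 2.20, 1.03 and 2.04 in Six2- cells, a difference of 0.85 (SE 0.20, adjusted p = 0.00854). For both genes every Six2+ library was above every Six2- library. Equal mapping of class II alleles of these outbred mice to the single reference was not tested in either comparison.

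H2-Aa, which encodes the alpha chain that pairs with H2-Ab1, was not called. It measured 3.02, 3.32 and 1.99 in Six2+ and 2.43, 1.74 and 2.60 in Six2- cells, overlapping, with a difference of 0.20 (SE 0.19, adjusted p = 0.417). Cd74, the invariant chain that guides class II molecules to the compartment where they bind peptide, measured 4.60, 3.93 and 4.08 in Six2+ and 7.59, 4.76 and 5.24 in Six2- cells. Every Six2+ library was below every Six2- library, and the difference of -0.38 (SE 0.17, adjusted p = 0.116) did not pass; with the replicate number as a block it was called (adjusted p = 0.038).

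In the other table H2-Ab1 had its highest level of the 4 groups at P2, with 10.4 and 12.3 against 3.54, 3.15 and 3.90 in Cited1+ cells. The difference was -1.45 (SE 0.14, adjusted p = 0.000438). H2-Eb1 measured 3.03, 2.71 and 2.79 in Cited1+ and 3.72 and 2.999 in P2 cells, a difference of -0.18 (SE 0.15, adjusted p = 0.38). For H2-Aa the values were 1.81, 1.97 and 2.10 in Cited1+ and 0.568 and 2.26 in P2 cells, a difference of 0.39 (SE 0.29, adjusted p = 0.343), and the P2 libraries lay on either side of the Cited1+ libraries; without P2 replicate 2 H2-Aa was called (0.91, adjusted p = 0.028), with P2 then a lone library. Cd74 measured 5.23, 4.52 and 4.58 in Cited1+ and 4.02 and 2.64 in P2 cells, above P2 in each library, a difference of 0.43 (SE 0.17, adjusted p = 0.0955) that was called without P2 replicate 1 (0.66, adjusted p = 0.0479), with P2 then a lone library.

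Markers of the leukocytes best known for class II were read beside these values. Ptprc (CD45), which marks nearly all nucleated blood cells, measured 0.00419, 0.0320 and 0 in Six2+, 1.44, 1.58 and 0.974 in Six2-, 0.350, 0.371 and 0.186 in Cited1+ and 0.437 and 0.479 in P2 cells. Of 12 dendritic, B and T cell markers, 6 were listed at 0 in all Six2+ libraries (Ms4a1, Cd3e, Cd3g, Cd8a, Clec9a and Siglech) and 7 in both P2 libraries (Flt3, Cd79a, Cd3e, Cd3g, Xcr1, Clec9a and Siglech). In all Six2- libraries 1 was at 0 (Ms4a1), and in all Cited1+ libraries 1 (Cd3g). P2 had 2 libraries, among them the shallowest, so a 0 throughout is reached more easily there. The sums of the 12 markers were 1.57 to 1.80 in Six2+, 1.61 to 1.99 in Six2-, 1.37 to 2.85 in Cited1+ and 3.14 to 3.16 in P2 cells. The 1 of these genes that was tested, Cd79b, did not pass between Six2+ and Six2- cells and was lower in Cited1+ than in P2 cells (-0.79, SE 0.18, adjusted p = 0.0189). At P2 the leukocyte marker sum was above that in Cited1+ cells, as was H2-Ab1; its part in that difference was not tested.

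Genes that work with class II were measured too. Ciita, the transactivator that switches on class II genes, was below the filter and is named after its values were seen: 0.602, 0.389 and 0.587 in Six2+, 0.0560, 0.0567 and 0.0257 in Six2-, 0.734, 0.904 and 0.685 in Cited1+ and 0.152 and 0.432 in P2 cells. With no filter Ciita was higher in Six2+ than in Six2- cells (0.54, adjusted p = 0.00153) and did not pass between Cited1+ and P2 cells (0.46, adjusted p = 0.0903). H2-DMb1 and H2-DMa encode the chains of the molecule that exchanges class II peptides, and their genes stand between H2-K1 and H2-Ab1 on chromosome 17. H2-DMb1 measured 3.09, 3.44 and 2.55 in Six2+ and 0.731, 0.775 and 0.962 in Six2- cells, a difference of 1.14 (SE 0.15, adjusted p = 0.000398). Its Six2- values were all below 1, so in that table it passed the filter through its Six2+ level. H2-DMa measured 4.02, 5.37 and 4.09 in Six2+ and 1.97, 2.15 and 1.21 in Six2- cells, a difference of 0.99 (SE 0.18, adjusted p = 0.00265). Both were higher in Six2+ cells, with no overlap. Between Cited1+ and P2 cells the chains went opposite ways. H2-DMb1 measured 1.33, 1.496 and 0.795 in Cited1+ and 4.06 and 3.93 in P2 cells (-1.19, SE 0.19, adjusted p = 0.00388), while H2-DMa measured 5.13, 4.71 and 5.43 in Cited1+ and 2.88 and 1.16 in P2 cells (1.07, SE 0.24, adjusted p = 0.0168).

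**Figure D5:**
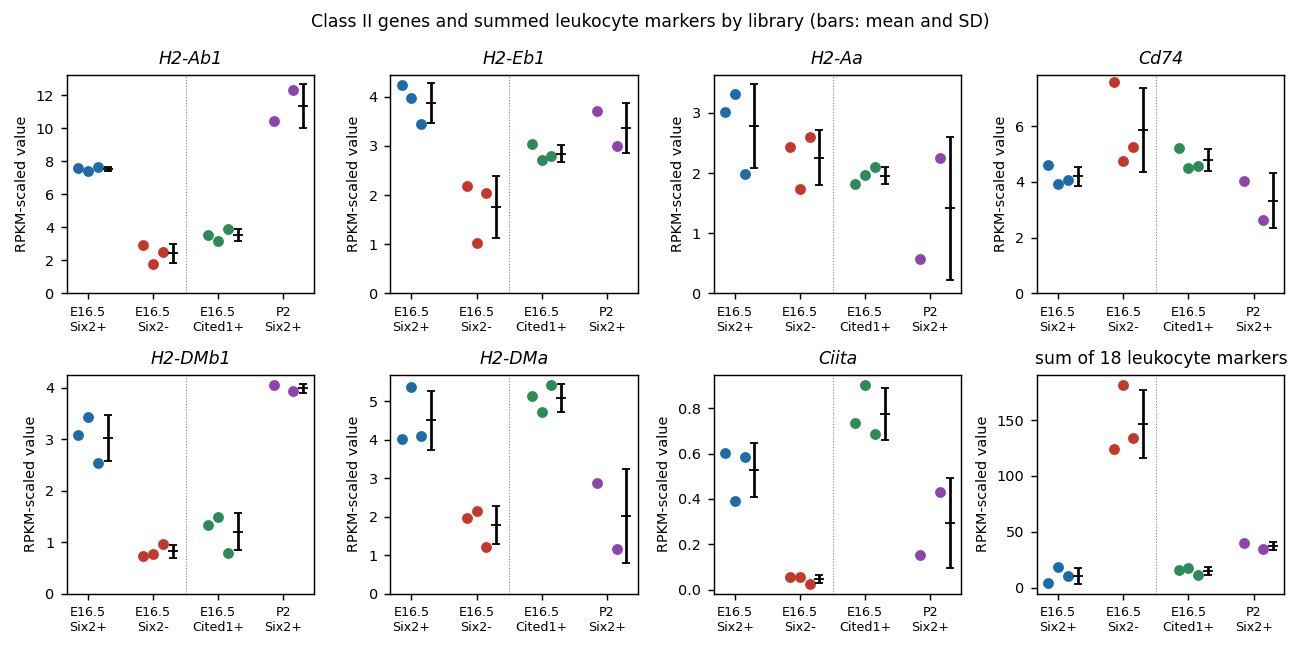
RPKM-scaled value of H2-Ab1, H2-Eb1, H2-Aa, Cd74, H2-DMb1, H2-DMa and Ciita, and the summed value of 18 macrophage and leukocyte markers, in each library (points, one colour per group), with group mean and SD as bars; each panel has its own axis. H2-Ab1 and H2-DMb1 are high in Six2+ cells of both ages and low in Six2- and Cited1+ cells, whereas the leukocyte marker sum is highest in Six2- cells.

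Along the class II region of chromosome 17, calls between Six2+ and Six2- cells changed from gene to gene. From H2-DMa and H2-DMb1, both higher, the order runs through Psmb9, Tap1, Psmb8, Tap2 and H2-Ob, not called or not tested, to H2-Ab1, higher, H2-Aa, not called, and H2-Eb1, higher. H2-D1, farther along the chromosome at 35262730 to 35267499 (GRCm38), was lower.

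The wider pathways were read from lists of genes outside the 37. Of 26 other interferon signalling genes tested (31 listed), 13 were lower and 4 higher in Six2+ than in Six2- cells, with a median of -0.57 (0.12 over all genes). Among all genes tested, 18.1% were lower and 20.5% higher. The largest differences were in Irf5, a factor that acts in myeloid cells (-1.39, SE 0.16, adjusted p = 0.000159), Mb21d1, the DNA sensor cGAS (-1.16, SE 0.16, adjusted p = 0.000458), and Jak1, the kinase that both receptors use (-0.98, SE 0.12, adjusted p = 0.00019). Irf5 measured 0.258 ± 0.127 in Six2+ and 2.29 ± 0.327 in Six2- cells (mean ± SD, n = 3 each), and Jak1 22.6 ± 0.515 and 45.8 ± 3.97. With a Six2+ mean below 1, Irf5 passed the filter through its Six2- level. Irf5 moved with the leukocyte marker sum given above, and the part of those cells was not tested. Between Cited1+ and P2 cells 6 of 25 were higher and 2 lower, against 16.3% and 12.7% of all genes, with a median of 0.22 (0.07 over all genes). Socs1, which switches Jak signalling off, was higher in Cited1+ cells (1.21, SE 0.19, adjusted p = 0.00395), as were Tmem173, the adaptor STING (0.82, SE 0.15, adjusted p = 0.00667), and Irf2bp1, a partner of the repressor Irf2 (0.65, SE 0.13, adjusted p = 0.00984). Socs1 measured 3.10 ± 0.629 in Cited1+ (n = 3) and 0.765 ± 0.256 in P2 cells (n = 2). It passed the filter through its Cited1+ level, and was also called by limma with no filter (adjusted p = 0.0264).

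Of 17 other interferon-stimulated genes tested (53 listed), 7 were lower and 2 higher in Six2+ than in Six2- cells, with a median of -0.33. The shares over all genes were 18.1% lower and 20.5% higher. The remaining 36 were not tested. Ube2l6, the enzyme that attaches Isg15 to proteins, measured 2.16, 3.19 and 2.42 in Six2+ and 13.5, 24.9 and 36.9 in Six2- cells, a difference of -2.76 (SE 0.31, adjusted p = 0.000132). The Six2- erythroid marker sums were 826, 4894 and 8574 in the same replicate order, so that the libraries ranked alike in both, and their part was not tested. Lgals3bp, a secreted glycoprotein, and Ifi27l2a, a relative of Ifi27, were also lower (-1.84, SE 0.14, adjusted p = 1.42e-05, and -1.13, SE 0.26, adjusted p = 0.0088). Between Cited1+ and P2 cells none of 17 was higher and 3 were lower, against 16.3% and 12.7% of all genes, with a median of -0.10. The lower genes were Tor3a, a protein of the endoplasmic reticulum (-1.07, SE 0.14, adjusted p = 0.00173), and Parp9 and Dtx3l, which form a complex (-0.86, SE 0.17, adjusted p = 0.0111, and -0.72, SE 0.17, adjusted p = 0.0206).

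Of 18 other antigen presentation genes tested (28 listed), 4 were higher and 4 lower in Six2+ than in Six2- cells, with a median of -0.0047. The shares over all genes were 20.5% higher and 18.1% lower. The largest difference was in Ctss, cathepsin S, the protease that trims the invariant chain and is also one of the leukocyte markers, at 0.376 ± 0.464 in Six2+ and 9.70 ± 2.80 in Six2- cells (mean ± SD, n = 3 each; -2.98, SE 0.27, adjusted p = 3.48e-05). H2-DMb1, given above, and the non-classical class I gene H2-T22 (-1.10, SE 0.33, adjusted p = 0.0279) followed. Ctss, with a Six2+ mean below 1, passed the filter through its Six2- level. Between Cited1+ and P2 cells 2 of 19 were higher and 9 lower, against 16.3% and 12.7% of all genes, with a median of -0.47. H2-T22 was higher in Cited1+ cells (1.23, SE 0.27, adjusted p = 0.0148), and H2-Q7, another non-classical class I gene, was lower (-1.23, SE 0.18, adjusted p = 0.00299), as was H2-DMb1. H2-Q4, a further class I gene named after its values were seen, measured 7.96, 7.11 and 7.60 in Six2+ and 4.80, 5.24 and 4.84 in Six2- cells, and was higher in Six2+ cells by 0.52 (SE 0.12, adjusted p = 0.00963). It measured 4.15, 3.25 and 18.03 in Cited1+ cells, with replicate 3 far above the other two, and 8.79 and 9.89 at P2, a difference of -0.47 (SE 0.57, adjusted p = 0.56) that did not pass.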

How the data were processed

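RNA was extracted with a Qiagen micro kit and made into stranded mRNA libraries with a Kapa kit, per the labels. Partek, TopHat2, bcl2fastq 2.17 and build mm10 are named in the submitters' processing notes; how reads were counted was not given in the sources used here. The authors deposited 1 table per comparison. Their columns are named TPM but behave as RPKM: the deposited sums ran from 321883 to 433447 (coefficient of variation 8.95%), while sums weighted by transcript length, known for 96.1% of genes (GENCODE M21), varied by 2.92%. In each library 52.7% to 63.4% of low values lay within 0.05 of a whole read. Of 24454 rows, 27 with dates for symbols were dropped. The authors' deposited short lists give a ratio of group means, printed here for Six2+ over Six2- cells.

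Each table was fitted on log2(value + 1) with limma 3.58.1 in R 4.3.3, using the mean-variance trend, for genes with a mean of at least 1, with Benjamini-Hochberg adjustment over all genes. The fit was also run on simulated data with independent noise for each gene and library. That simulation held no pairing, so it cannot test the p-values for paired libraries. The 37 genes, the other lists and the tests were chosen with earlier results of these data known. Every one of the 37 is accounted for, those passing the filter with all their values and the others by range, and up to 3 called genes per pathway list are named. H2-DMa, H2-Q4 and Ciita, and the cell type markers Cd79b, Ramp2, Gdnf and Pdgfrb, were named in addition, after their values were seen. Same-numbered Six2+ and Six2- libraries deviated together from their group means (r of 0.470, 0.455 and 0.404 across genes), so the numbers may mark pairs. The main fit left any pairing out, so its SEs, p-values and counts are unpaired. A fit with the number as a block was run as an alternative. Coordinates are from GENCODE M21 (GRCm38, the build called mm10). Alternatives were the pseudocount, filter, scaling, trend and block and each library left out.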

Additional observations from a re-analysis of the deposited data

How the results depend on the processing

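Of the 15 calls among the 37 genes between Six2+ and Six2- cells, 13 were made under every alternative run that tested the gene. Of the 9 between Cited1+ and P2 cells, 5 were. Requiring a mean of at least 5 tested 17 of the 37 genes, without H2-Ab1 and H2-Eb1, and 8717 of all genes: 0 of the 17 were higher and 10 lower in Six2+ cells, and 1814 and 1230 of all genes. With no filter 1 of the 37, and 1139 of all genes, were higher in Cited1+ cells. Between Six2+ and Six2- cells the numbers of all genes higher and lower went from 2440 and 2149 (53.2% higher) to 1546 and 2106 (42.3%) rescaled to the same total and to 1647 and 2560 (39.1%) with median-of-ratios scaling, which moved the median of all genes from 0.12 to 0.00; the lower calls above were kept under both. For Cited1+ and P2 cells the numbers went from 1930 and 1512 (56.1%) to 1546 and 1782 (46.5%) and to 1612 and 1748 (48.0%).

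The replicate block gave 3603 higher and 2632 lower genes, 2 and 14 of them among the 37, between Six2+ and Six2- cells; Cd74 was the 1 call it changed. Cited1+ and P2 numbers were shared only by name (r of 0.04 and -0.03), and their block gave 895 and 868 genes, 2 and 5 among the 37, and not Ifnar2 (adjusted p = 0.0838) or Psme1 (0.171). Leaving out single libraries gave 1618 to 2382 genes higher and 1673 to 2206 lower in Six2+ cells, with 2 to 2 and 11 to 14 of the 37. In Cited1+ cells it gave 791 (without Cited1+ replicate 1) to 3012 (without replicate 2) higher and 788 (without P2 replicate 2) to 2145 lower, with 2 to 4 and 4 to 7 of the 37.

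Among the 37 genes the sign changed only for uncalled differences, and the cause was not tested. With each library left out in turn, differences between Six2+ and Six2- cells ranged from -0.072 to 0.12 for Psme1 and -0.10 to 0.14 for Stat2. They ranged from -0.0073 to 0.27 for Irf3, -0.0055 to 0.24 for Irf9, -0.31 to 0.036 for Ifi27 and -0.19 to 0.082 for Psme2. Between Cited1+ and P2 cells they ranged from -0.25 to 0.34 for Ifi27, -0.10 to 0.43 for Ifi35, -0.14 to 0.91 for H2-Aa and -0.28 to 0.024 for Tap1. Scaling to the same total gave -0.030 for Psme1 (Six2+ and Six2-) and -0.024 for Ifi27 (Cited1+ and P2). Median-of-ratios scaling gave -0.077 for Psme1, -0.039 for Stat2, -0.0048 for Irf3 and -0.00017 for Irf9 in the first comparison and -0.0083 for Ifi27 in the second. The block gave -0.25 for Ifi27 and -0.062 for Ifi35 in the second.

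The 10 genes under the filter had means below 1 and were not tested at that filter, and 2 P2 libraries limit the second comparison.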
